A study of Mus musculus with 72 samples.

Results

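The genes described here are 10 transcripts typical of promyelocytes and of the primary (azurophil) granules these cells build. They are Mpo, Elane, Prtn3, Ctsg, Ctsc, Serpinb1a, Srgn, Ms4a3, Igsf6 and Lyz2, listed by name, and all 10 had a probe set with 1 gene symbol among the 19938 genes measured this way. Each of the 10 was represented by exactly 1 probe set. They were followed across the 16 groups of a series on acute promyelocytic leukaemia (APL) in mice.

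APL is a leukaemia in which a fusion of the retinoic acid receptor alpha (RARA) holds myeloid cells at the promyelocyte stage, and retinoic acid (RA) releases that block when the fusion partner is PML. Promyelocytes make the primary granules, which hold myeloperoxidase (Mpo) and the serine proteases neutrophil elastase (Elane), proteinase 3 (Prtn3) and cathepsin G (Ctsg). The serine proteases are made as precursors, trimmed by the peptidase cathepsin C (Ctsc) and packed on the proteoglycan serglycin (Srgn). The cytosolic inhibitor Serpinb1a holds these proteases in check. Transcription of Mpo, Elane, Prtn3 and Ctsg is known to be high in promyelocytes and to end as the cells mature and turn to secondary granules. Ms4a3 is a membrane protein of granulocyte and monocyte progenitors, Igsf6 is an immunoglobulin-like membrane protein of myeloid cells, and Lyz2 encodes lysozyme, which continues to be made in monocytes and mature granulocytes.

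The RefSeq promoter table used here (build GRCm38.p6) matched 9 of the 10 genes, all but Serpinb1a, with 10 entries in all. In 7 of these entries the start lay where the gene begins in the reference gene annotation, and in the others it did not. Distances below are from the start of the entry. Both strands of the 250 bases before each start were searched for 5 motifs of myeloid regulators, spelled out here. GAGGAA (bound by PU.1) lay in the windows of 6 genes and in 23.3% of the 32851 promoters in the table. TTNNGNAA (C/EBP factors) lay in those of 4 genes and in 36.8% of all promoters, and AACNG (MYB) in those of 8 genes and in 74.2%. TGNGGT (RUNX1) lay in those of 4 genes and in 40.1%, and AGGTCA (a single-receptor site of nuclear receptors such as RARA) in the window of Igsf6 alone and in 14.0% of all promoters. No motif is contained in another. The 150 bases before the start are shown for the neighbouring pair Elane and Prtn3, which rose together in 2 leukaemias after 12 h of RA, for Ctsg, which fell there, and for Ms4a3, which differed most between leukaemias. They lie at chr10:79886162-79886311 (plus strand) for Elane, chr10:79879517-79879666 (plus strand) for Prtn3, chr14:56102575-56102724 (minus strand) for Ctsg and chr19:11640852-11641001 (minus strand) for Ms4a3, and capitals mark every match to the 5 motifs.
Elane: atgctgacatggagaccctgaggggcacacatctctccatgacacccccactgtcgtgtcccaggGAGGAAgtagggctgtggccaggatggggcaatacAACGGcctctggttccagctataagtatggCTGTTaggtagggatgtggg
Prtn3: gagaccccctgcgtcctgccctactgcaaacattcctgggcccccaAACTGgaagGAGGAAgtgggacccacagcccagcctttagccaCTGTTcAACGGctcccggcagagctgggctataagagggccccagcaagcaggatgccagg
Ctsg: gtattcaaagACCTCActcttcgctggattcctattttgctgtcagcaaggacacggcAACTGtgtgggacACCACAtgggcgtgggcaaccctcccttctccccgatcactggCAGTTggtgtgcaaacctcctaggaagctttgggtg
Ms4a3: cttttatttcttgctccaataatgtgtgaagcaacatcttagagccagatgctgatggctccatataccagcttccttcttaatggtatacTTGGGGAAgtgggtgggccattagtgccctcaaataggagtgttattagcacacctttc
The GAGGAA match began 85 bases before the start in Elane and 95 bases before it in Prtn3, and an AACGG match followed it in both. Ctsg had its GAGGAA match further out, 216 bases before the start, and its window held 2 matches to the RUNX motif. Ms4a3 held a single match to any of the motifs, the C/EBP one, 59 bases before its start. A match is a description of the letters and was not tested as a binding site.

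The arrays measured total RNA of bone marrow from 4 kinds of leukaemia, each treated with RA or left untreated and taken at 6 h or 12 h. Leukaemias of the transgenic model carried PML/RARA (8 RA and 4 untreated arrays at each time) or PLZF/RARA (4 RA and 2 untreated arrays at each time), on a background labelled WT. In the viral transduction model, all leukaemias carried PML/RARA, on a background labelled pml-/- (called Pml null here) or WT (Pml wild type), each with 8 RA and 4 untreated arrays at 6 h and 4 RA and 2 untreated arrays at 12 h. The labels used here do not name the promoter of the transgenes, the viral vector, the strain and age of the mice or the dose of RA, nor say if replicate arrays stand for separate mice or leukaemias, so p-values measure the spread between these arrays. The 36 arrays of a model fell into 2 batches that the other model did not share, and the models were not compared with each other. All values are log2 expression values. Groups are said not to overlap where every value of one lay above every value of the other. How many of all genes did so was not counted, and small groups separate more easily. Changes are log2 differences with their standard error (SE) from limma fitted over all genes with a batch term, and a gene was called when its Benjamini-Hochberg adjusted p over the 19938 genes was below 0.05.

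Across the series, array medians ran from 6.56 to 6.81 and single values from 2.60 to 14.24, and no 2 arrays were identical. The residual SD had a median over genes of 0.149 (transgenic) and 0.153 (viral), with 27 residual degrees of freedom each. The gene Pml did not separate the viral backgrounds: its untreated arrays averaged 9.27 ± 0.19 (SD, n = 4) in leukaemia labelled Pml null and 9.32 ± 0.09 (SD, n = 4) in Pml wild type at 6 h, a difference of -0.04 ± 0.13 over both times (adjusted p = 0.916). The labels do not place its probes relative to the deletion, so this value does not check the labels, and every direction below rests on the label Pml null. The bone marrow held other cells too: erythroid markers, as the mean of the 6 measured, ran from 8.21 to 10.48 in transgenic PML/RARA arrays and from 6.76 to 7.45 in PLZF/RARA arrays. In such bulk samples, fewer cells of a type and less RNA per cell cannot be told apart.

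Most of the 10 genes were among the brightest on the arrays. Over all 72 arrays, Srgn (13.40), Mpo (13.21), Ctsg (13.09), Lyz2 (12.89) and Elane had means at or above percentile 99.8 of all genes. Prtn3, Igsf6 and Serpinb1a lay between percentiles 98.7 and 99.0, while Ctsc (9.42) lay at percentile 80.6. Ms4a3 (10.80, percentile 94.5) was bright in all groups except those labelled Pml null, described below. Mpo, Elane, Prtn3 and Ctsg, which mark promyelocytes, did not fall below 9.93 on any array. Spread between arrays of a group was small for the brightest of them: the residual SD of Ctsg was 0.049 and that of Mpo 0.067 in the transgenic model, at percentiles 0.1 and 0.5 of all genes. Prtn3 (0.211), Elane (0.214) and Ctsc (0.274) varied more. Whether the signal of genes this close to the top of the array's range is compressed was not tested.

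Counted over the 10 genes, between 0 and 5 were called in each of the 8 RA comparisons. In transgenic PML/RARA leukaemia 1 gene was called up and 1 down at 6 h (5.81% of all genes were called up and 8.54% down), and 3 were called up and 2 down at 12 h (9.88% and 11.7% of all genes). In PLZF/RARA leukaemia 1 was called up and 1 down at 6 h (1.45% and 0.747% of all genes), and 3 up and 0 down at 12 h (2.46% and 1.57%). For Pml null leukaemia 1 was called up and 2 down at 6 h (4.97% and 6.38%), and 2 up and 1 down at 12 h (4.22% and 1.83%). For Pml wild type 1 was called up and 1 down at 6 h (5.44% and 4.44%), and 0 in either direction at 12 h (3.03% and 3.07%), where limma gave 2 of the 10 an unadjusted p below 0.05 and the same fit with array weights called 1 up and 1 down. The median change of the 10 genes lay between -0.15 (Pml null, 6 h) and 0.21 (PLZF/RARA, 12 h), against medians of all genes between -0.055 and 0.064.

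**Figure D1:**
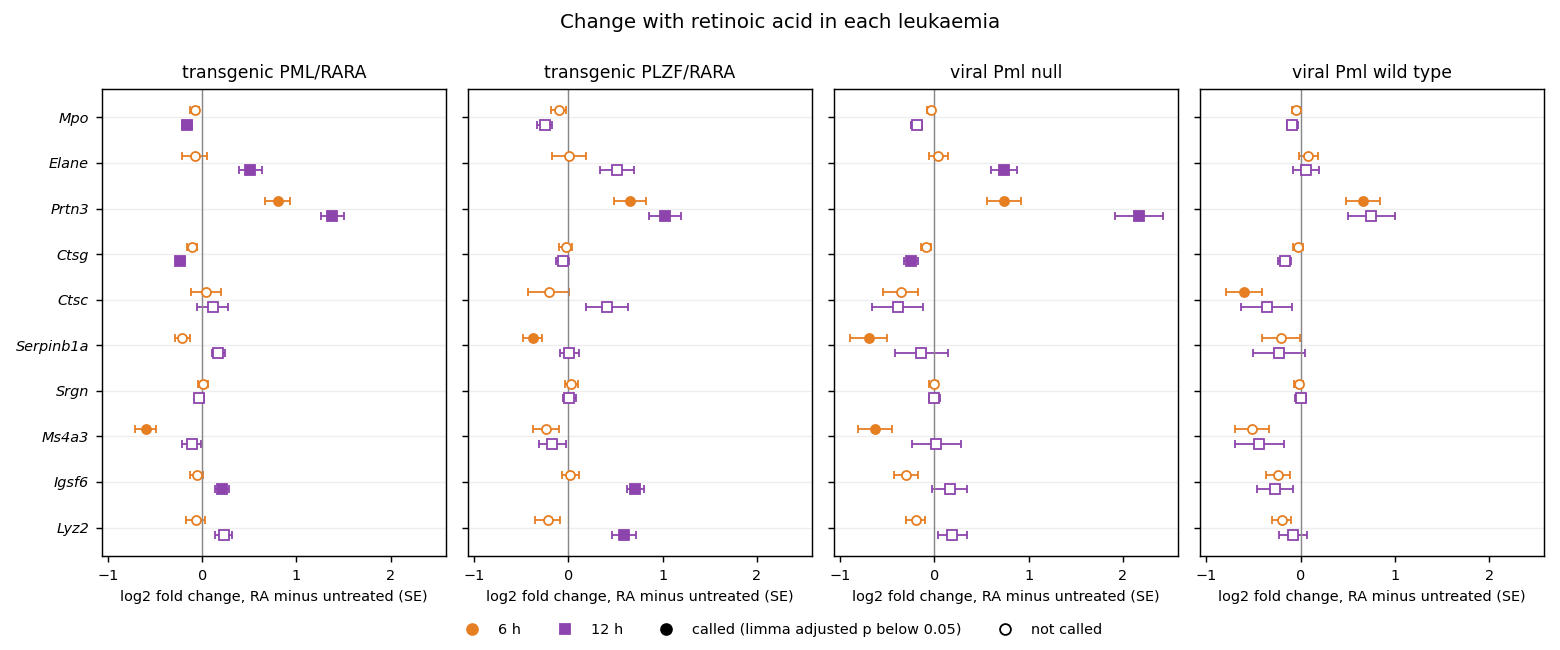
Log2 change with retinoic acid (horizontal axis, RA minus untreated, bars are SE) of the 10 genes in the 4 leukaemias, at 6 h (circles) and 12 h (squares), with filled symbols for calls. Prtn3 lies to the right of 0 in all 8 comparisons, Srgn lies at 0, and Mpo and Ctsg lie slightly to the left at 12 h.

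Prtn3, the protease proteinase 3, was the gene of the 10 that rose most widely. In transgenic PML/RARA leukaemia at 6 h, its lowest, median and highest values were 12.31, 12.38 and 12.48 in RA arrays, against 11.59, 11.32, 11.78 and 11.58 in untreated arrays. At 12 h they were 12.56, 12.73 and 12.84 in RA arrays, against 11.71, 11.37, 11.01 and 11.32 in untreated arrays. Every RA array lay above every untreated array at both times, and the groups did not overlap. The change was 0.80 ± 0.13 at 6 h (adjusted p = 1.71e-05) and 1.38 ± 0.12 at 12 h (adjusted p = 1.45e-10), a rise of 1.74-fold and 2.60-fold. The 6 h rise was 0.71 within batch 1 and 0.93 within batch 2, and was called in each.

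In PLZF/RARA leukaemia, Prtn3 stood at 10.93, 11.50, 10.68 and 11.53 in RA arrays at 6 h, against 10.49 and 10.52 in untreated arrays. At 12 h the RA arrays had 11.26, 11.32, 11.46 and 11.59 and the untreated arrays 10.08 and 10.67. The groups again did not overlap, although the RA arrays at 6 h were spread widely. The rise was 0.65 ± 0.17 at 6 h (adjusted p = 0.0369) and 1.03 ± 0.17 at 12 h (adjusted p = 0.000216). With 2 untreated arrays a time, the 6 h call was lost without untreated array 1 or 2 or RA array 2 or 4 (0.53 to 0.67), and the 12 h call without untreated array 1 (0.74, adjusted p = 0.0569).

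In leukaemia labelled Pml null, Prtn3 had its largest change. Its lowest, median and highest values at 6 h were 11.36, 11.79 and 12.28 in RA arrays, against 11.28, 10.70, 11.43 and 10.74 in untreated arrays, and these groups overlapped. At 12 h it stood at 12.91, 12.18, 13.07 and 12.35 in RA arrays and at 10.98 and 9.93 in untreated arrays, with no overlap. The rise was 0.74 ± 0.18 at 6 h (adjusted p = 0.00455; 0.69 within batch 3 and 0.80 within batch 4, adjusted p = 0.274 and 0.0537 in these smaller fits). At 12 h it was 2.17 ± 0.25, or 4.50-fold (adjusted p = 5.26e-07), and ran from 1.64 to 2.70 when single arrays were left out.

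In Pml wild type, the values of Prtn3 at 6 h had a lowest, median and highest of 12.37, 12.55 and 12.81 in RA arrays, against 11.71, 12.11, 11.82 and 12.04 in untreated arrays. At 12 h the RA arrays had 12.90, 12.71, 12.54 and 12.51 and the untreated arrays 11.82 and 12.02. No group overlapped its untreated group. Prtn3 rose by 0.66 ± 0.18 at 6 h (adjusted p = 0.0127; 0.68 within batch 3 and 0.64 within batch 4, adjusted p = 0.332 and 0.112), a call that was lost without untreated array 1 (0.59) or 3 (0.62). The 12 h change of 0.75 ± 0.25 missed the threshold (adjusted p = 0.0739).

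Elane, the gene next to Prtn3 on chromosome 10, was called at 12 h in PML/RARA and Pml null leukaemia. The effect at 12 h minus that at 6 h was not called for Elane in these (0.59 ± 0.18, adjusted p = 0.195, and 0.70 ± 0.17, adjusted p = 0.171), and its size was not tested against that of Prtn3. In transgenic PML/RARA leukaemia at 6 h its lowest, median and highest values were 12.55, 12.93 and 13.12 in RA arrays, against 12.76, 12.93, 12.99 and 13.06 in untreated arrays. At 12 h they were 13.16, 13.25 and 13.49 in RA arrays, against 13.14, 12.54, 12.59 and 12.76 in untreated arrays. The groups overlapped at 6 h (change -0.08 ± 0.13, adjusted p = 0.778) and separated at 12 h, where Elane rose by 0.51 ± 0.12 (adjusted p = 0.00206). The 12 h values of Elane in leukaemia labelled Pml null were 13.36, 12.97, 13.36 and 12.87 in RA arrays and 12.68 and 12.12 in untreated arrays. That rise of 0.74 ± 0.14 (adjusted p = 0.000662) was 0.46 without untreated array 2 and was then not called (adjusted p = 0.207). The 12 h change of 0.52 ± 0.18 in PLZF/RARA leukaemia missed the threshold (adjusted p = 0.0957), with untreated arrays as far apart as 11.54 and 12.38, and without untreated array 2, the higher one, it was 0.94 (adjusted p = 0.00609). Elane in Pml wild type moved by 0.08 ± 0.10 at 6 h and 0.06 ± 0.14 at 12 h, with a 95% interval of -0.22 to 0.35 at 12 h, and its arrays in that leukaemia all lay between 13.48 and 13.73.

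Ctsg, the third serine protease of the granule, went the other way by small steps. In transgenic PML/RARA leukaemia at 12 h its lowest, median and highest values were 12.86, 12.96 and 13.03 in RA arrays, against 13.12, 13.16, 13.20 and 13.25 in untreated arrays. All RA arrays lay below all untreated arrays, and Ctsg fell by 0.23 ± 0.05 (change -0.23, adjusted p = 0.000298). In leukaemia labelled Pml null at 12 h it stood at 13.10, 13.11, 13.14 and 13.10 in RA arrays and at 13.35 and 13.37 in untreated arrays. This fall (-0.25 ± 0.07, adjusted p = 0.0275) also came without overlap, and was not called without RA array 2 or 4 or untreated array 1 or 2 (-0.26 to -0.24). The changes at 6 h lay between -0.11 and -0.03 in the 4 leukaemias and none was called. At 12 h Pml wild type had -0.17 ± 0.07 (adjusted p = 0.187) and PLZF/RARA -0.06 ± 0.07 (adjusted p = 0.706).

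Mpo, the haem enzyme that makes hypochlorous acid, was called in 1 of the 8 RA comparisons. Its lowest, median and highest values in transgenic PML/RARA leukaemia at 12 h were 13.15, 13.21 and 13.28 in RA arrays, against 13.38, 13.37, 13.34 and 13.43 in untreated arrays. The groups did not overlap, and Mpo fell by 0.16 ± 0.05 (change -0.16, adjusted p = 0.0254), a call lost without untreated array 1 (-0.16, adjusted p = 0.0522) or 4 (-0.14, adjusted p = 0.0960). In PLZF/RARA leukaemia at 12 h it stood at 12.48, 12.69, 12.53 and 12.41 in RA arrays and at 12.83 and 12.73 in untreated arrays. In leukaemia labelled Pml null at 12 h it stood at 13.30, 13.31, 13.32 and 13.33 in RA arrays and at 13.50 and 13.51 in untreated arrays. Both differences lacked overlap and came close to the threshold (-0.25 ± 0.08, adjusted p = 0.0528, and -0.19 ± 0.06, adjusted p = 0.0518); without RA array 2 the PLZF/RARA change was -0.30 (adjusted p = 0.0164). The point change of Mpo was below 0 in all 8 RA comparisons, from -0.25 to -0.04.

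**Figure D2:**
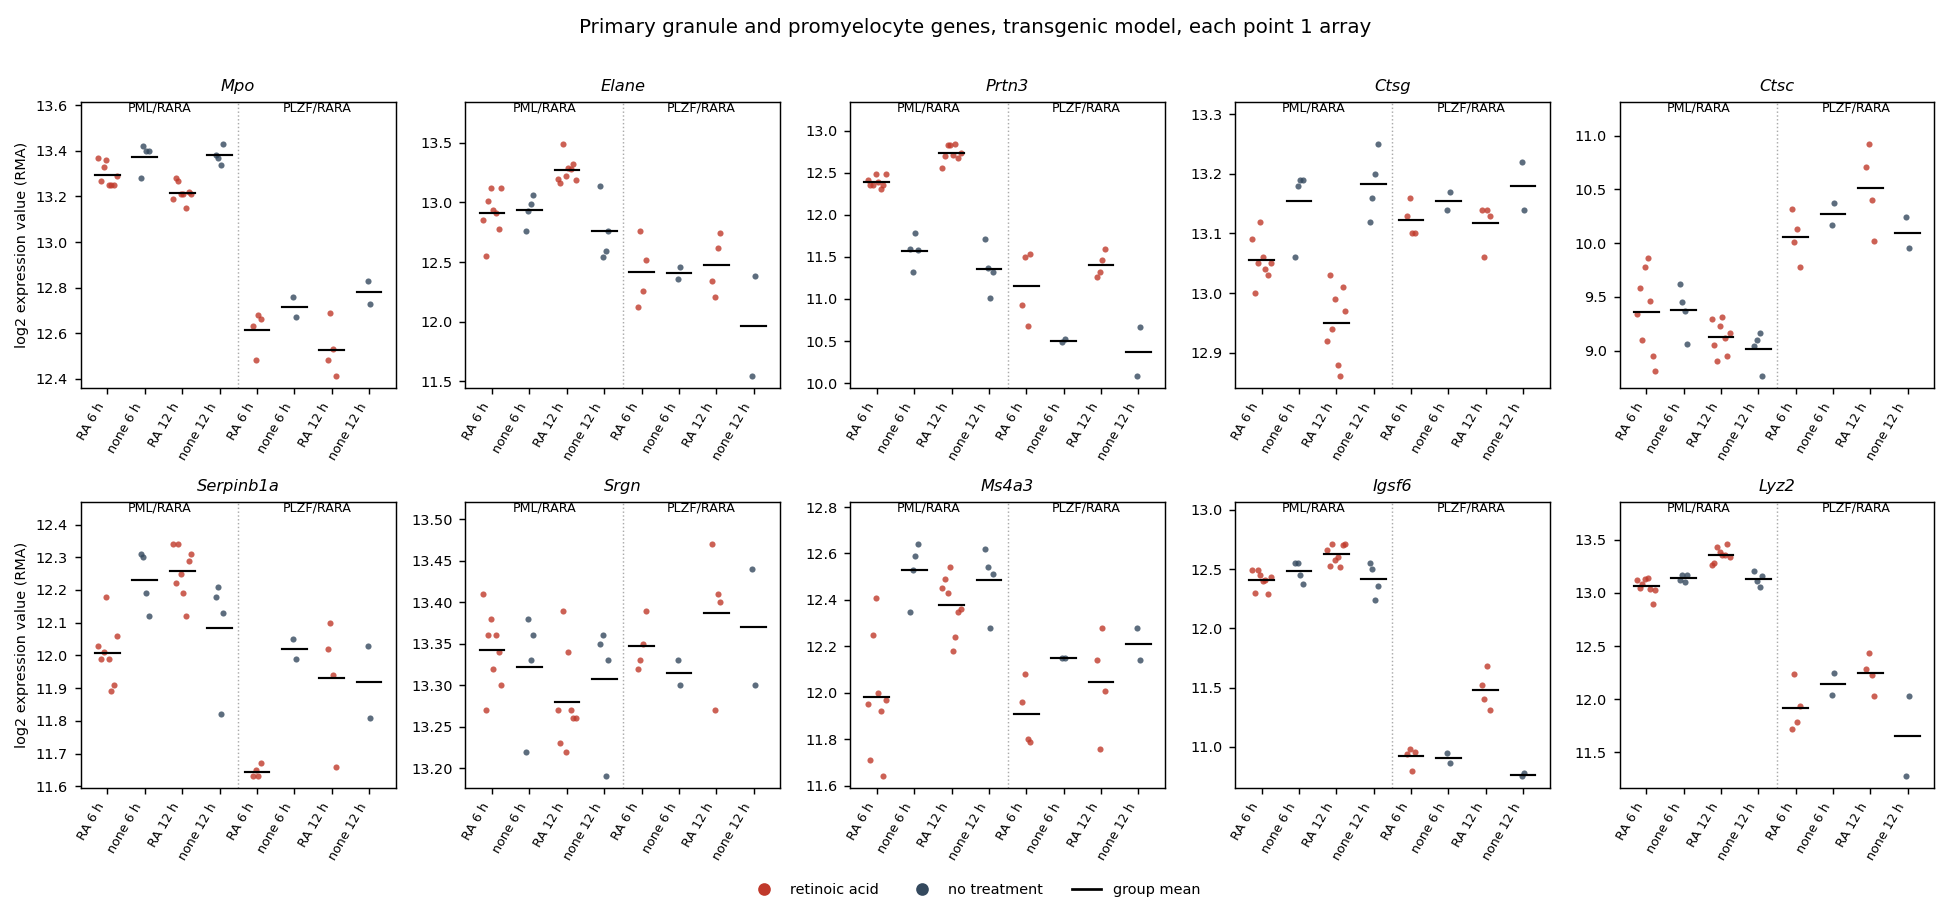
Log2 expression value (vertical axis, a scale of its own in each panel) of the 10 genes on each array of the transgenic model, RA arrays in red left of the untreated arrays in blue at each time, with PML/RARA left of PLZF/RARA and black lines for group means. The Prtn3 arrays treated with RA sit above the untreated ones in both leukaemias, and Mpo, Igsf6 and Lyz2 sit higher in PML/RARA than in PLZF/RARA whatever the treatment.

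Ctsc, the peptidase that activates the serine proteases, and Serpinb1a, which inhibits them, gave calls at 6 h alone. In Pml wild type at 6 h, Ctsc was 9.21, 9.05, 9.17 and 8.73 in the 4 RA arrays of batch 4 and 10.08, 10.13, 10.17 and 10.35 in the 4 RA arrays of batch 3, against 9.99 and 10.07 (batch 4) and 10.18 and 10.60 (batch 3) in untreated arrays. The RA arrays of batch 4 lay below all others, while those of batch 3 overlapped the untreated arrays. Its fall (-0.60 ± 0.19, adjusted p = 0.0452) was -0.99 within batch 4 (adjusted p = 0.0118) and -0.21 within batch 3 (adjusted p = 0.883). Without any one of RA arrays 1 to 4 or untreated arrays 1, 2 or 4 it was not called (-0.59 to -0.51). In the other 7 RA comparisons Ctsc moved by -0.39 to 0.41 and was not called.

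Serpinb1a fell in PLZF/RARA leukaemia at 6 h, to 11.63, 11.65, 11.63 and 11.67 in RA arrays, against 12.05 and 11.99 in untreated arrays, without overlap (-0.38 ± 0.10, adjusted p = 0.0463). That call was lost without any one of the 6 arrays except RA array 2 (-0.41 to -0.34). In leukaemia labelled Pml null at 6 h its lowest, median and highest values were 11.53, 11.78 and 12.26 in RA arrays, against 12.45, 12.41, 12.65 and 12.55 in untreated arrays. These groups did not overlap either (-0.70 ± 0.20, adjusted p = 0.0185; -0.81 within batch 3 without a call and -0.59 within batch 4 with one), and the call was lost without untreated array 3 (-0.64) or 4 (-0.67). At 6 h Serpinb1a moved by -0.21 ± 0.08 in transgenic PML/RARA leukaemia (adjusted p = 0.0594; -0.23 and called without RA array 4) and by -0.21 ± 0.20 in Pml wild type. At 12 h no change was called, and the values were 0.17 ± 0.07 in PML/RARA, 0.01 ± 0.10 in PLZF/RARA, -0.14 ± 0.28 in Pml null and -0.23 ± 0.28 in Pml wild type.

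In Pml wild type at 12 h the RA arrays split. Serpinb1a was 12.48 and 12.51 in RA arrays 1 and 2 and 11.26 and 10.86 in RA arrays 3 and 4, against 11.99 and 12.03 in untreated arrays. Igsf6 (12.54 and 12.43, then 11.67 and 11.50) and Lyz2 (13.45 and 13.35, then 12.88 and 12.89) split the same way. Both pairs were labelled alike, and what sets them apart was not tested. With arrays 3 and 4 both left out, a choice made after the values were seen, Serpinb1a moved by 0.49 (adjusted p = 0.150), Prtn3 by 0.88 (adjusted p = 0.0655) and Ctsg by -0.26 (adjusted p = 0.0335). The RA arrays of leukaemia labelled Pml null at 12 h fell into pairs as well, with arrays 1 and 3 above arrays 2 and 4. Igsf6 was 12.68 and 12.69 in arrays 1 and 3 and 12.18 and 12.23 in arrays 2 and 4, against 12.17 and 12.40 in untreated arrays. Lyz2 (13.35 and 13.38, then 12.72 and 12.82), Prtn3 and Elane had the same order, and the values of Prtn3 and Elane without single arrays are those given above.

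Srgn, the proteoglycan that holds proteases in the granule, gave no call in any RA comparison, and its intervals were narrow. Its 72 values lay between 13.19 and 13.63, and its change with RA ran from -0.03 to 0.03 in the 8 comparisons. At 12 h the 95% interval was -0.13 to 0.08 in transgenic PML/RARA leukaemia, -0.13 to 0.16 in PLZF/RARA, and -0.13 to 0.13 in each viral background.

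Ms4a3, the membrane protein of myeloid progenitors, was called down at 6 h in transgenic PML/RARA and in Pml null leukaemia. In transgenic PML/RARA leukaemia its lowest, median and highest values were 11.64, 11.96 and 12.41 in RA arrays, against 12.35, 12.53, 12.59 and 12.64 in untreated arrays. One RA array reached into the untreated range, and Ms4a3 fell by 0.60 ± 0.11 (change -0.60, adjusted p = 8.51e-05; -0.58 within batch 1 and -0.61 within batch 2, called in each). At 12 h the change was -0.11 ± 0.10 (adjusted p = 0.565). In leukaemia labelled Pml null, where the gene lay near the middle of all genes, it fell at 6 h (-0.63 ± 0.18, adjusted p = 0.0202; -0.92 within batch 3 and -0.34 within batch 4, neither called), and the call was lost without untreated array 2, 3 or 4 (-0.60 to -0.56). Ms4a3 in Pml wild type had lowest, median and highest values at 6 h of 11.69, 11.93 and 12.56 in RA arrays, against 12.50, 12.49, 12.59 and 12.63 in untreated arrays. RA arrays 5 and 6 stood at 12.52 and 12.56, apart from the other 6, and the change of -0.52 ± 0.18 missed the threshold (adjusted p = 0.0710); it was called without array 5 (-0.57) or 6 (-0.58). In PLZF/RARA leukaemia Ms4a3 stood at 11.96, 12.08, 11.80 and 11.79 in RA arrays at 6 h, against 12.15 and 12.15 in untreated arrays, below them but without a call (-0.24 ± 0.14, adjusted p = 0.465). No 12 h change of Ms4a3 was called, with -0.17 ± 0.14 in PLZF/RARA, 0.02 ± 0.26 in Pml null and -0.44 ± 0.26 in Pml wild type.

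At 12 h Igsf6 was called up in both transgenic leukaemias and Lyz2 in PLZF/RARA leukaemia. In PLZF/RARA leukaemia Igsf6 stood at 11.52, 11.40, 11.68 and 11.31 in RA arrays at 12 h, against 10.75 and 10.78 in untreated arrays. The groups were clearly apart, and Igsf6 rose by 0.71 ± 0.09 (adjusted p = 9.13e-06), from 0.65 to 0.77 when single arrays were left out. In PML/RARA leukaemia, where the untreated level was already higher, its lowest, median and highest values at 12 h were 12.52, 12.63 and 12.71 in RA arrays, against 12.55, 12.50, 12.24 and 12.36 in untreated arrays. With overlap, the rise was 0.21 ± 0.07 (adjusted p = 0.0173) and was not called without untreated array 3 (0.16) or 4 (0.20). Lyz2 in PLZF/RARA leukaemia at 12 h stood at 12.28, 12.43, 12.23 and 12.03 in RA arrays, against 11.27 and 12.03 in untreated arrays. Its rise of 0.59 ± 0.13 (adjusted p = 0.00501) rested on the lower untreated array: it was 0.21 without untreated array 1 (adjusted p = 0.504) and 0.97 without array 2. In PML/RARA leukaemia the 12 h change of Lyz2 was 0.23 ± 0.09 without overlap (adjusted p = 0.0859). Lyz1, a near-identical neighbour of Lyz2, can share its signal, and the 2 cannot be told apart with certainty. Lyz1 rose in PML/RARA leukaemia at 12 h too (0.43 ± 0.12, adjusted p = 0.00833). Serpinb1b and Serpinb1c, relatives of Serpinb1a, had group means of 4.03 to 4.41 and of 3.86 to 4.07, at the dim end of the arrays.

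**Figure D3:**
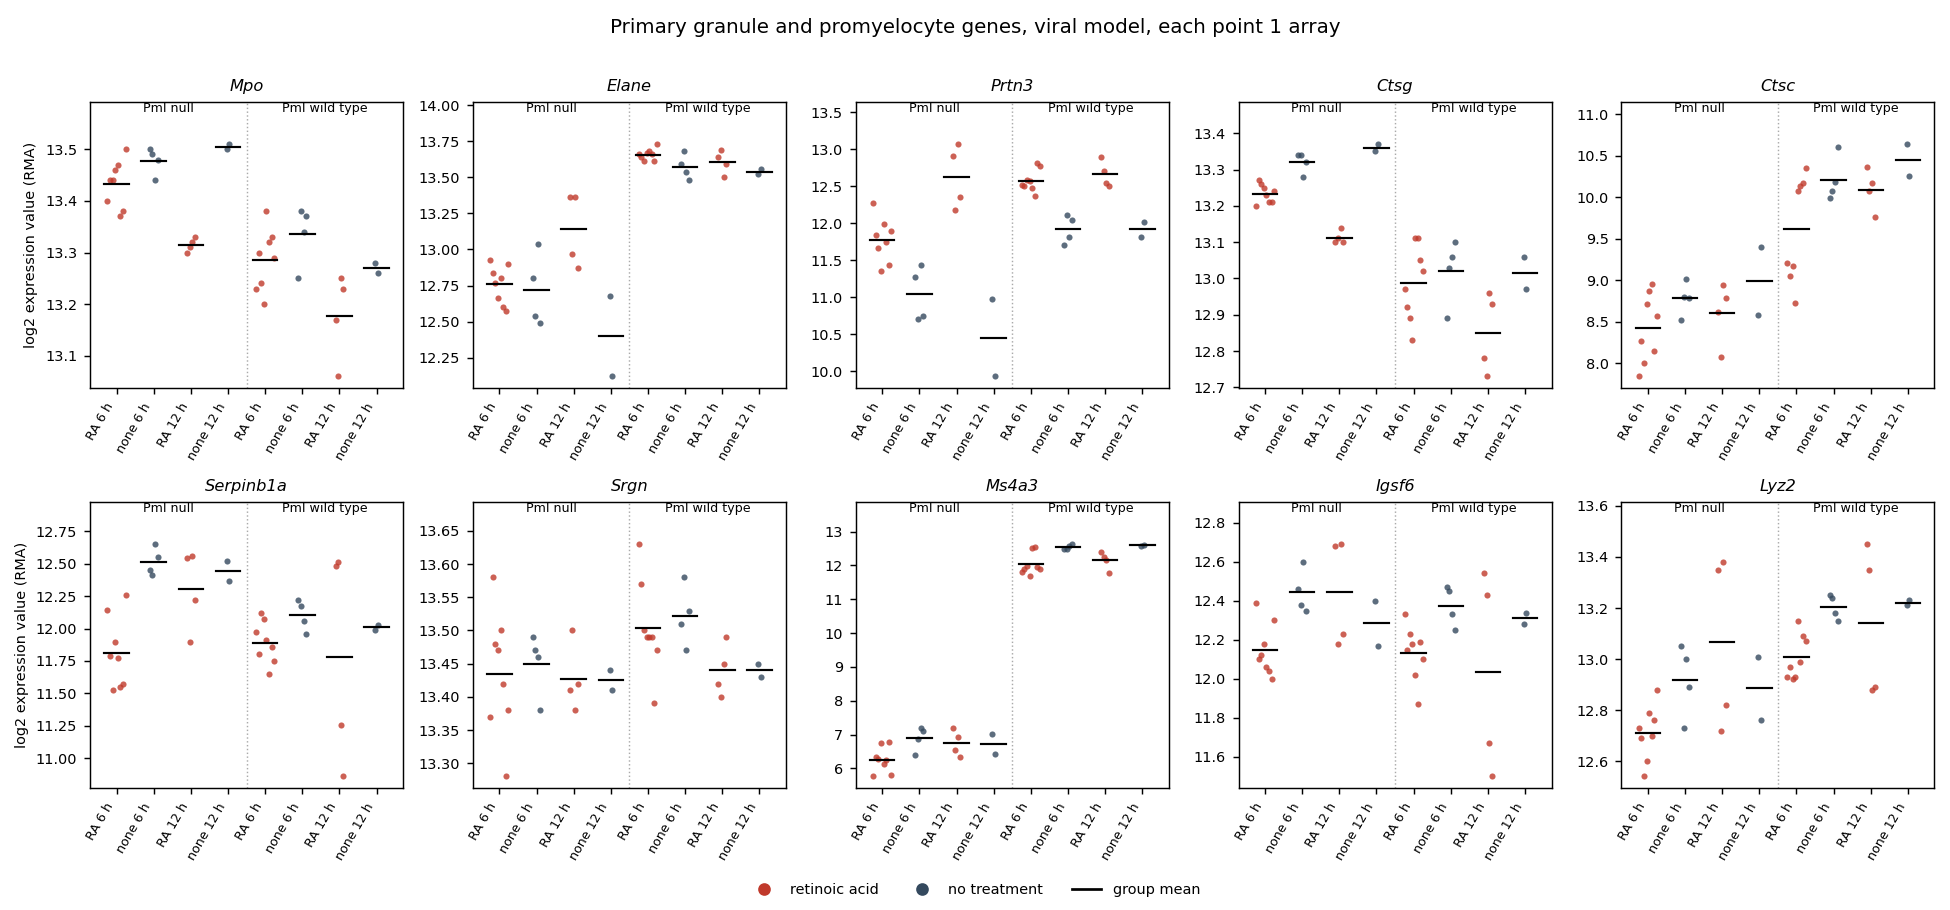
Log2 expression value (vertical axis, a scale of its own in each panel) of the 10 genes on each array of the viral model, RA arrays in red left of the untreated arrays in blue at each time, with Pml null left of Pml wild type and black lines for group means. Ms4a3 lies between 5.76 and 7.19 in the arrays labelled Pml null and between 11.69 and 12.63 in those labelled Pml wild type, and Elane, Prtn3 and Ctsc are lower in the untreated Pml null arrays.

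More of the 10 genes were called between untreated leukaemias than with RA in any comparison. Of all genes, 5049 (transgenic) and 4151 (viral) were called between untreated leukaemias, against 439 to 4306 in the RA comparisons. Numbers of arrays differed too. The untreated arrays also enter the RA comparisons, so these are not independent. Between untreated PML/RARA and PLZF/RARA leukaemia, averaged over both times (8 and 4 arrays), 6 of the 10 genes were higher in PML/RARA and 1 was lower, against 13.1% and 12.2% of all genes, and the median difference was 0.50. Igsf6 ran from 12.24 to 12.55 in PML/RARA (median 12.50 at 6 h and 12.43 at 12 h) and stood at 10.95, 10.86, 10.75 and 10.78 in PLZF/RARA. This gap, 1.60 ± 0.07 or 3.03-fold (adjusted p = 1.61e-19), was the largest of the 10. Lyz2 was 1.24 ± 0.10 higher in PML/RARA (adjusted p = 1.63e-12), Prtn3 1.05 ± 0.13 (adjusted p = 3.78e-08), Elane 0.72 ± 0.13 (adjusted p = 3.31e-05) and Mpo 0.63 ± 0.05 (adjusted p = 2.25e-11), all without overlap. For Mpo that meant 13.28 to 13.43 in PML/RARA arrays, against 12.67 to 12.83 in PLZF/RARA arrays.

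Ms4a3 was higher by 0.38 ± 0.11 with overlap (adjusted p = 0.00647), and among 12 h arrays only it was 0.28 and not called (adjusted p = 0.229). Ctsc alone of the 10 was lower in untreated PML/RARA leukaemia, at 8.76 to 9.62, against 9.95 to 10.37 in PLZF/RARA arrays (-1.04 ± 0.16, adjusted p = 3.79e-06). Ctsg (0.01 ± 0.05, 95% interval -0.09 to 0.11), Srgn (-0.02 ± 0.05) and Serpinb1a (0.17 ± 0.08, adjusted p = 0.0945; 0.22 and called without PML/RARA 12 h untreated array 3) were not called. Within batch 1 alone the 6 rises and the fall were called again. Markers of other cells were called between these untreated leukaemias too: against 13.1% of all genes, 5 of 6 erythroid, 6 of 10 monocyte and macrophage, 6 of 9 T and NK cell, 6 of 7 megakaryocyte and 5 of 8 stromal genes were higher in PML/RARA. Their part in the differences was not tested.

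Between untreated leukaemia labelled Pml null and Pml wild type (6 arrays each), 2 of the 10 genes were higher and 5 lower in Pml null, against 10.9% and 9.92% of all genes. Ms4a3 carried the largest difference. At 6 h it stood at 6.40, 6.86, 7.19 and 7.12 in Pml null arrays, against 12.50, 12.49, 12.59 and 12.63 in Pml wild type arrays. At 12 h it stood at 7.02 and 6.43 in Pml null arrays, against 12.58 and 12.61 in Pml wild type arrays. The measured gap was -5.77 ± 0.18 (adjusted p = 1.26e-21), a 54.4-fold difference in signal that is only a lower bound if the Pml null signal is background.

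The 18 Pml null arrays, treated or not, lay between 5.76 and 7.19, around the middle of all genes (percentiles 39.1 to 50.3 of the group means), while Ms4a3 lay at percentile 98.6 or higher in the other 12 groups. The deposited table gives no detection call, so whether the gene is above background in Pml null is not known. The genes on both sides of Ms4a3 on chromosome 19 that had a probe set were lower in untreated Pml null as well: Ms4a2, a subunit of the IgE receptor of mast cells and basophils, by 1.39 (-1.39 ± 0.15, adjusted p = 1.21e-08) and Oosp2, an oocyte-secreted protein, by 1.54 (-1.54 ± 0.13, adjusted p = 3.53e-11).

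Elane and Prtn3 were lower together in untreated Pml null. Elane had 12.80, 12.54, 13.04 and 12.49 at 6 h in Pml null arrays, against 13.59, 13.68, 13.54 and 13.48 in Pml wild type arrays, and over both times the groups did not overlap (-1.0 ± 0.10, adjusted p = 1.19e-09). Prtn3 had 11.28, 10.70, 11.43 and 10.74, against 11.71, 12.11, 11.82 and 12.04 (-1.17 ± 0.18, adjusted p = 3.80e-06). Both groups were fully apart in these genes. Ctsc was lower by 1.44 (-1.44 ± 0.19, adjusted p = 5.42e-07), at 8.52 to 9.40 in Pml null arrays and 9.99 to 10.64 in Pml wild type arrays.

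Ctsg and Mpo were higher in Pml null, Ctsg by 0.32 ± 0.05 (adjusted p = 5.85e-06) and Mpo by 0.19 ± 0.04 (adjusted p = 0.000999), both without overlap. For Ctsg the range was 13.28 to 13.37 in Pml null arrays and 12.89 to 13.10 in Pml wild type arrays. Lyz2 was lower without overlap (-0.31 ± 0.10, adjusted p = 0.0281), a call lost without Pml null 6 h array 2, Pml null 12 h array 2 or Pml wild type 6 h array 1, 12 h array 1 or 12 h array 2 (-0.32 to -0.25). Serpinb1a lay above every Pml wild type array (12.37 to 12.65 in Pml null, 11.96 to 12.22 in Pml wild type) but was not called (0.42 ± 0.20, adjusted p = 0.154), and Srgn (-0.04 ± 0.05) and Igsf6 (0.03 ± 0.13) were not called. Within batch 3, every one of these calls but that of Lyz2 (-0.28, adjusted p = 0.237) held. Of 18 secondary granule genes measured, 17 were lower in untreated Pml null and 0 higher (9.92% and 10.9% of all genes), with a median of -1.74, and 6 of 10 monocyte and macrophage genes were lower; their part in the differences was not tested.

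**Figure D4:**
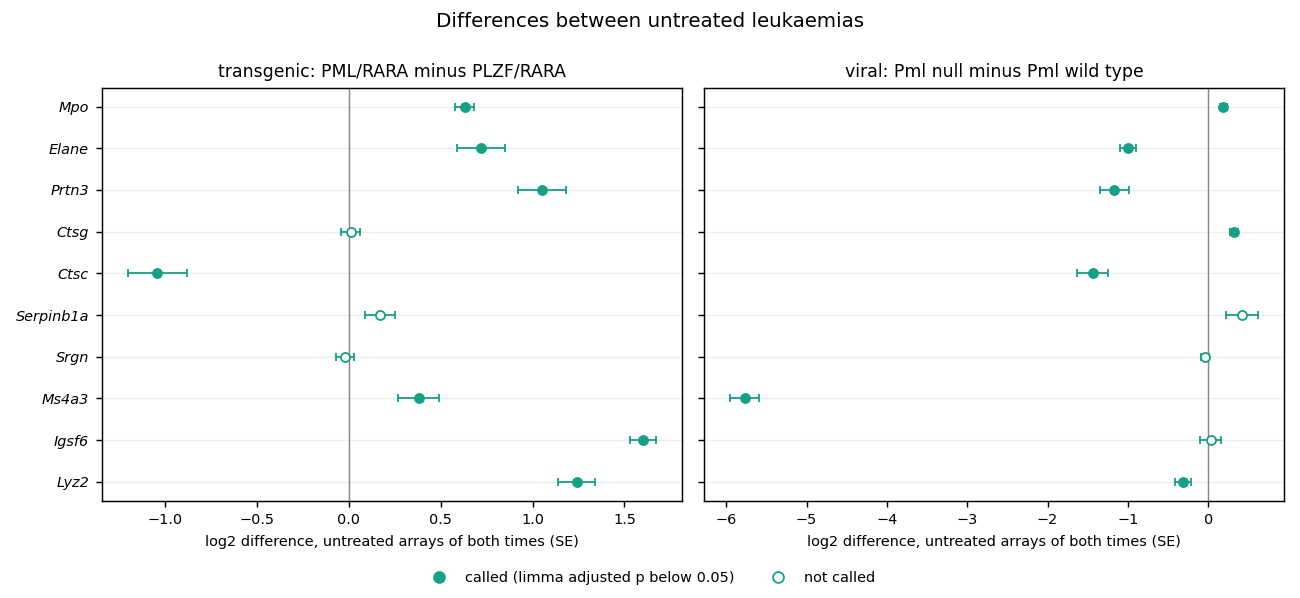
Log2 difference between untreated leukaemias (horizontal axis, bars are SE, filled symbols for calls) for the 10 genes, PML/RARA minus PLZF/RARA on the left and Pml null minus Pml wild type on the right. Igsf6 and Lyz2 lead the rises on the left, and Ms4a3 at -5.77 stands apart on the right.

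Differences in RA effect between leukaemias were called for few of the 10 genes. The effect in PML/RARA minus that in PLZF/RARA leukaemia, over both times, was called for 1 gene down and 0 up, against 4.07% and 3.35% of all genes. That gene was Igsf6 (-0.29 ± 0.08, adjusted p = 0.0253), which rose more in PLZF/RARA leukaemia; the call was lost without PLZF/RARA untreated array 1 or 2 at 12 h or untreated array 2 at 6 h (-0.30 to -0.27). For Prtn3 the difference was 0.25 ± 0.15, with a 95% interval of -0.06 to 0.55. The effect in Pml null minus that in Pml wild type was called for 0 of the 10 genes up and 0 down, against 0.752% and 0.381% of all genes. In limma 2 of the 10 had an unadjusted p below 0.05, and the fit with array weights called 1. They were Prtn3 (0.75 ± 0.22, adjusted p = 0.0929) and Elane (0.32 ± 0.12, adjusted p = 0.349), and without Pml null 12 h untreated array 1 (1.02, adjusted p = 0.0135) or RA array 2 (0.83, adjusted p = 0.0485) Prtn3 was called.

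The RA effect at 12 h minus that at 6 h was called for 1 gene in one leukaemia: Igsf6 in PLZF/RARA (0.69 ± 0.13, adjusted p = 0.0397; 1 up and 0 down, against 0.0201% and 0.00502% of all genes). The call was lost in 6 of the 12 fits without 1 array, namely untreated 12 h array 1, RA 12 h array 3, untreated 6 h array 1 or 2 and RA 6 h array 1 or 3 (0.63 to 0.74), and the median of all genes in this comparison was -0.111. In PML/RARA leukaemia 0 of the 10 were called up and 0 down (0.160% and 0.0702% of all genes), although 6 had an unadjusted limma p below 0.05, among them Elane (0.59 ± 0.18), Prtn3 (0.58 ± 0.18), Ms4a3 (0.49 ± 0.15) and Serpinb1a (0.38 ± 0.11), and the fit with array weights called 5. In Pml null 0 were called up and 0 down (0.0301% and 0.00502% of all genes), 4 with an unadjusted limma p below 0.05. Prtn3 had 1.43 ± 0.31 there (adjusted p = 0.0864), which was called without untreated 12 h array 1 (1.95) or without RA 6 h array 1, and Elane had 0.70 ± 0.17 (adjusted p = 0.171), called without untreated 12 h array 1 (0.98); with array weights both were called. In Pml wild type limma called 0 up and 0 down of the 10 genes and 0% of all genes in either direction, with an unadjusted p below 0.05 for 0 of the 10 genes and 298 of all genes.

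Among the transcription regulators listed, Cebpa and Cux1 rose in all 8 RA comparisons. Of 14 regulators of granulocyte and monocyte progenitors, 7 rose and 2 fell at 6 h in transgenic PML/RARA leukaemia (5.81% and 8.54% of all genes), with a median change of 0.29. Cebpa, which starts granulocyte commitment, rose by 1.32 ± 0.11 at 6 h and 1.09 ± 0.11 at 12 h in PML/RARA, by 1.09 ± 0.15 and 0.75 ± 0.15 in PLZF/RARA, by 1.37 ± 0.11 and 1.03 ± 0.16 in Pml null and by 1.29 ± 0.11 and 1.13 ± 0.16 in Pml wild type. Cux1, a homeodomain factor, rose by 0.34 to 0.63. Spi1, which encodes PU.1, rose by 0.82 ± 0.09 at 6 h in PML/RARA, 1.10 ± 0.09 in Pml null and 0.49 ± 0.09 in Pml wild type, and by 0.21 ± 0.12 without a call in PLZF/RARA; the difference Pml null minus Pml wild type over both times was called (0.53 ± 0.11). Cebpe, the factor of late granulocyte maturation, rose by 1.68 ± 0.10 in PML/RARA and 1.29 ± 0.20 in Pml wild type at 6 h.

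Other regulators fell. Myc fell at 6 h in PML/RARA (-0.66 ± 0.10), Pml null (-0.97 ± 0.26) and Pml wild type (-0.92 ± 0.26). Myb, the factor of progenitors known to switch on Mpo and Elane, fell at 6 h in Pml null (-0.48 ± 0.11) and Pml wild type (-0.44 ± 0.11), and had -0.21 ± 0.08 without a call in transgenic PML/RARA leukaemia; whether it differed between models was not tested. In untreated leukaemia labelled Pml null, Cebpa (0.77 ± 0.11), Cebpe (1.00 ± 0.20) and Myb (0.71 ± 0.11) were higher than in Pml wild type. Spi1 (-0.76 ± 0.09) and Cebpb (-0.72 ± 0.09) were lower. The mean of all regulators listed had a median of 9.78 in untreated Pml null and 9.77 in Pml wild type arrays at 6 h. At 12 h it was 9.79 and 9.84. At 6 h, 2 of these regulators rose and 2 fell in PLZF/RARA (1.45% and 0.747% of all genes), 5 rose and 4 fell in Pml null (4.97% and 6.38%), and 6 rose and 4 fell in Pml wild type (5.44% and 4.44%).

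Further contents of primary granules did not move as a block. Of 11 measured, 3 rose and 3 fell at 6 h (5.81% and 8.54% of all genes) and 4 rose and 1 fell at 12 h (9.88% and 11.7%) in PML/RARA leukaemia, with medians of 0.06 and 0.16. Ctsd, the aspartic protease cathepsin D, rose most there, by 1.35 ± 0.11 at 6 h and 1.52 ± 0.10 at 12 h, while Gusb, beta-glucuronidase, fell (-0.50 ± 0.07 and -0.54 ± 0.07). In PLZF/RARA Ctsd moved by 0.31 ± 0.15 at 6 h without a call, and the difference in effect over both times was called (1.04 ± 0.13). In Pml null and Pml wild type Ctsd rose by 1.28 ± 0.15 and 1.49 ± 0.15 at 6 h. Asah1, acid ceramidase, rose in PML/RARA by 0.41 ± 0.08 and 0.71 ± 0.08, and Ctsb, cathepsin B, by 0.37 ± 0.08 and 0.54 ± 0.08.

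Among 12 inhibitors and related proteases, 3 rose and 1 fell at 6 h in PML/RARA (5.81% and 8.54% of all genes). In each viral background 1 rose and 1 fell, near the shares of all genes (4.97% and 6.38% in Pml null, 5.44% and 4.44% in Pml wild type). Cst7, cystatin F, an inhibitor of the maturation of granule proteases by Ctsc, fell in PML/RARA (-0.33 ± 0.08 at 6 h and -0.55 ± 0.08 at 12 h) and in Pml null at 12 h (-0.50 ± 0.13). Of 11 genes of haem synthesis and of the chaperones that fold Mpo, 1 rose at 6 h in PML/RARA, near the share of all genes (5.81%). That gene, Alas1, the first enzyme of haem synthesis, rose at 6 h by 0.43 ± 0.08 in PML/RARA, 0.36 ± 0.11 in Pml null and 0.52 ± 0.11 in Pml wild type. In PLZF/RARA it rose by 0.56 ± 0.11 at 12 h. Alas1 does not stand for this list, whose other genes are not given here. At 6 h the list mean had a median of 10.97 in RA and 10.80 in untreated PML/RARA arrays. It was 10.34 and 10.42 in Pml null, and 10.29 and 10.41 in Pml wild type. At 12 h in PLZF/RARA it was 10.57 and 10.49.

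Beside the 12 h changes, secondary granule genes shifted in some leukaemias. Of 18 measured, 8 rose and 2 fell in PML/RARA (9.88% and 11.7% of all genes), 8 rose and 0 fell in PLZF/RARA (2.46% and 1.57%), 8 rose and 0 fell in Pml null (4.22% and 1.83%), where their median was 0.89, and 2 rose and 0 fell in Pml wild type (3.03% and 3.07%). Ncf1, a subunit of the phagocyte oxidase, rose in Pml null by 3.94 ± 0.53, and Ngp, a secondary granule protein, by 1.99 ± 0.23. Monocyte and macrophage genes gave 2 rises and 1 fall of 10 in PML/RARA, 3 and 0 in PLZF/RARA, 1 and 0 in Pml null and 1 and 1 in Pml wild type, and 4 of 6 erythroid genes rose in PML/RARA. The mean level of the 10 monocyte and macrophage genes at 12 h ran from 8.85 to 9.12 in RA and from 8.59 to 8.96 in untreated PML/RARA arrays, and from 8.82 to 9.17 in RA and 8.53 to 8.99 in untreated Pml null arrays. The part of other cells in the 12 h changes was not tested.

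The neighbourhood of Prtn3 was followed by gene order alone. Plppr3, a phospholipid phosphatase-related membrane protein and the nearest measured gene before Prtn3, was called in most comparisons where Prtn3 was: it rose in PML/RARA by 0.92 ± 0.17 at 6 h and 1.42 ± 0.17 at 12 h, in PLZF/RARA by 1.28 ± 0.23 at 12 h, in Pml null by 0.78 ± 0.22 and 1.85 ± 0.31, and in Pml wild type by 0.87 ± 0.22 at 6 h. Med16, a subunit of the Mediator complex and the next measured gene after Elane, was called at 6 h in Pml null (0.56 ± 0.13) and Pml wild type (0.44 ± 0.13) and in no other RA comparison. In untreated leukaemia labelled Pml null, Plppr3 did not follow its neighbours: it differed from Pml wild type by 0.00 ± 0.22, while Prtn3 and Elane were lower. Whether probes of Plppr3 and Prtn3 measure transcripts that run into each other was not tested. Tspoap1, the measured gene before Mpo, fell with RA in PML/RARA (-1.03 ± 0.17 at 6 h and -1.21 ± 0.16 at 12 h), in Pml null (-0.57 ± 0.17 and -1.07 ± 0.24) and in Pml wild type (-0.69 ± 0.17 and -0.82 ± 0.24), but had 0.40 ± 0.23 at 6 h and -0.20 ± 0.23 at 12 h in PLZF/RARA without calls.

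**Figure D5:**
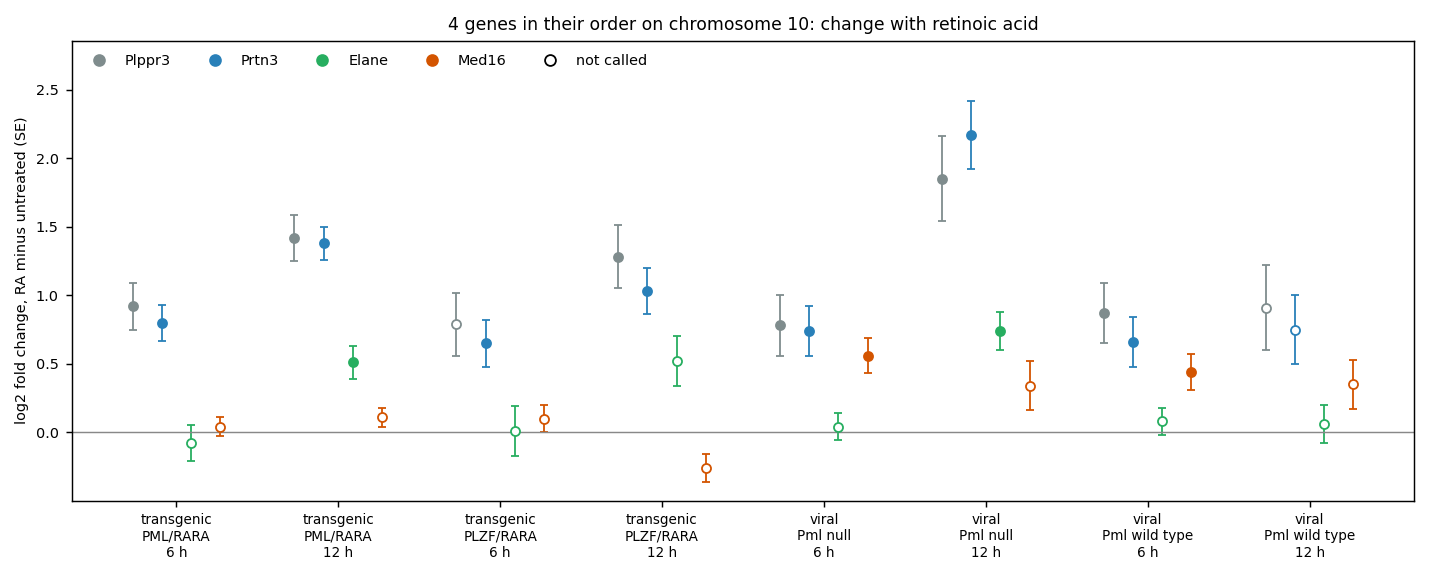
Log2 change with retinoic acid (vertical axis, bars are SE, filled symbols for calls) of Plppr3, Prtn3, Elane and Med16, in their order on chromosome 10, in the 8 RA comparisons (horizontal axis). Plppr3 and Prtn3 lie close together in each comparison, Elane lies near 0 at 6 h and above 0 at 12 h in 3 of the 4 leukaemias, and Med16 lies below Prtn3 in each.

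Over the 16 group means, centred within each model, Elane and Prtn3 correlated at 0.85, Igsf6 and Lyz2 at 0.94, and Elane and Ctsg at -0.85. Groups share arrays of one model and its batches, so these are descriptions. Between arrays of one group, Elane and Prtn3 again moved together (residual correlation 0.72 in transgenic and 0.85 in viral leukaemias), as did Serpinb1a and Igsf6 (0.93) and Mpo and Ctsg (0.82) in the viral model, where in the transgenic model these pairs had 0.62 and 0.19. The genes outside the 10 with the pattern most like that of Prtn3 were Stat3 (0.98), a factor downstream of cytokine receptors, Lamp1 (0.98), a lysosomal membrane protein, and Kbtbd7 (0.97), a ubiquitin ligase adaptor. For Elane they were the sorting receptor Sorl1 (0.96), the monocyte receptor Csf1r (0.95) and the chitinase-like Chil3 (0.95). For Mpo they were Sfmbt2 (0.98), Tenm3 (0.97) and Gspt2 (0.96), and for Ctsg Eci1 (0.97), Mbtps1 (0.96) and the translation factor Eif4b (0.96).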

How the data were processed

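Total RNA of mouse bone marrow was hybridised to 72 Affymetrix Mouse Gene 1.0 ST arrays. The deposited table holds log2 expression values per probe set, made by the authors with RMA in the affy package, per the submitters' processing notes; their versions were not given in the sources used here. RMA is meant to bring all arrays to one distribution, yet the array medians of the deposited values ran from 6.56 to 6.81. It can also compress the brightest and dimmest signals. Arrays have no read depth, so their number and the spread between them limit precision.

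Of 35556 probe sets, 23410 were listed in the platform annotation: 21789 with 1 gene symbol and 1621 with several, and the rest carried no name here. Per symbol the brightest probe set was kept, giving 19938 genes; 999 symbols had several probe sets. Each model of 36 arrays was fitted with limma 3.58.1 in R 4.3.3 (group means plus batch, empirical Bayes, two-sided), with 16 comparisons in all and Benjamini-Hochberg adjustment over all genes in each, called below 0.05. Comparisons that share untreated arrays are not independent. The fit was tested on simulated data. Replicate numbers are in accession order and name arrays only. The 10 genes and the 13 other gene lists were chosen with earlier results of these data known. The text may name all 10 genes and up to 4 genes of each list with the largest moderated statistics for RA in a leukaemia. It may also name all transcription regulators listed and the nearest measured gene on each side of each of the 10. For Mpo, Elane, Prtn3 and Ctsg it may name the 3 genes with the highest correlation of group means. Lyz1 and Pml were added outside these rules after their values were seen. Cpa3 in the closing section falls within them and was also added after its values were seen. Alternatives were a fit with no batch term, repeated quantile normalization, arrays centred on their medians, limma-trend with robust eBayes, array weights, genes below log2 6 left out, the mean of all probe sets, untreated arrays of both times pooled, only the groups compared, single batches, single times and each array left out.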

Additional observations from a re-analysis of the deposited data

Results flagged for a closer look

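Of 120 pairs of a gene and a group of at least 4 arrays, 5 held 1 array far from the rest by Dixon's criterion, which chance gives in about 1 of 20 groups. All 5 were low values. Among untreated transgenic PML/RARA arrays at 6 h, array 1 had 13.28 for Mpo, with the others at 13.40 to 13.42, and 13.06 for Ctsg, with the others at 13.18 to 13.19. Untreated PML/RARA array 3 at 12 h had 13.19 for Srgn, with the others at 13.33 to 13.36. PML/RARA RA array 7 at 6 h had 12.90 for Lyz2, with the others at 13.03 to 13.14, and PLZF/RARA RA array 2 at 12 h had 13.06 for Ctsg, with the others at 13.13 to 13.14.

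For Igsf6 a difference between effects passed the test in limma in 2 comparisons that share arrays. The RA effect over both times was lower in PML/RARA than in PLZF/RARA leukaemia by 0.29 (-0.29, adjusted p = 0.0253), and in PLZF/RARA leukaemia the effect at 12 h exceeded that at 6 h by 0.69 (adjusted p = 0.0397).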

How the results depend on the processing

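Over single genes, 1538 of 1620 results under other settings kept their side of the threshold, and 32 lost and 50 gained a call. Where either value was called, 0 changed sign. Without single arrays the numbers were 2339, 48, 13 and 0 of 2400. Among results that were called in neither fit, 65 changed sign under other settings and 97 without single arrays. Counts of the 10 genes called moved by over 1.5 times as follows. At 6 h in PLZF/RARA leukaemia, 2 became 1 with centred arrays and 0 with only the groups compared, and in PML/RARA 2 became 4 with array weights. In Pml wild type at 6 h, 2 became 1 without the batch term, 1 with centred arrays, 4 with only the groups compared, 0 in batch 3 and 1 in batch 4; in Pml null at 6 h, 3 became 0 in batch 3 and 1 in batch 4. At 12 h in Pml wild type, 0 became 2 with array weights, 3 with pooled untreated arrays, 1 with only the groups compared and 1 without RA arrays 3 and 4, an alternative chosen after seeing the data. At 12 h in Pml null, 3 became 1 with only the groups compared. For the effect at 12 h minus 6 h, the 0 of PML/RARA became 5 with array weights, 4 with pooled untreated arrays and 2 with only the groups compared, the 1 of PLZF/RARA became 2 with centred arrays and 0 with array weights or only the groups compared, and the 0 of Pml null became 2 with array weights or pooled untreated arrays. The 1 call for the RA effect in PML/RARA minus PLZF/RARA was 0 in batch 1 or at 6 h only, and the 0 for Pml null minus Pml wild type was 1 with array weights. The cause was not tested, beyond the fewer arrays in single batches and in fits of only the groups compared.

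Leaving out single arrays gave 2 to 3 calls at 6 h and 3 to 5 at 12 h in PML/RARA, 0 to 1 and 1 to 4 in PLZF/RARA, 1 to 3 at both times in Pml null, and 0 to 3 at 6 h and 0 to 0 at 12 h in Pml wild type. It gave 7 to 8 for untreated PML/RARA minus PLZF/RARA, 6 to 7 for untreated Pml null minus Pml wild type, 0 to 1 for both differences in RA effect, and for 12 h minus 6 h 0 to 0 in PML/RARA and Pml wild type, and 0 to 2 in PLZF/RARA and Pml null. Calls lost under a rescaling were Igsf6 in PML/RARA at 12 h (0.13 after quantile normalization), Prtn3 in PLZF/RARA at 6 h (0.59 with centred arrays), Ctsc in Pml wild type at 6 h (adjusted p = 0.0607 with centred arrays), Ctsg in Pml null at 12 h (-0.21 and -0.23) and Lyz2 for untreated Pml null minus Pml wild type (-0.25 and -0.28). The Lyz2 rise in PLZF/RARA at 12 h was 0.35 (adjusted p = 0.0833) with pooled untreated arrays. Of all genes called, 66.1% were up at 6 h in PLZF/RARA, against 49.5% after quantile normalization and 41.0% with centred arrays; at 12 h in Pml null it was 69.8% against 58.7% after quantile normalization, and for 12 h minus 6 h 69.6% against 50.0% in PML/RARA, 80.0% against 90.9% in PLZF/RARA and 85.7% against 62.5% in Pml null. No paired analysis was possible because the labels give all arrays the same replicate number. Groups of 2 untreated arrays limit the 12 h viral and all PLZF/RARA comparisons.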

Other observations

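Genes of stem and progenitor cells fell with RA in part. Of 11 measured, 4 fell and 0 rose at 6 h (8.54% and 5.81% of all genes) and again at 12 h (11.7% and 9.88%) in transgenic PML/RARA leukaemia. At 12 h 3 fell and 0 rose in PLZF/RARA (1.57% and 2.46%), and 4 fell and 0 rose in leukaemia labelled Pml null (1.83% and 4.22%). The median change of the 11 was 0.06 at 6 h in PML/RARA. Kit, the receptor of stem cell factor, fell by 1.30 (-1.30 ± 0.16) at 6 h and 1.29 (-1.29 ± 0.16) at 12 h in PML/RARA, and had -0.19 ± 0.22 and -0.31 ± 0.22 without calls in PLZF/RARA; the difference over both times was called (-1.04 ± 0.20, adjusted p = 0.000647). Cd34, a surface protein of progenitors, fell at 12 h by 1.38 (-1.38 ± 0.14) in PML/RARA and 1.53 (-1.53 ± 0.20) in PLZF/RARA, and the difference over both times was -0.02 ± 0.17. In untreated leukaemia labelled Pml null, Kit (1.79 ± 0.30), Gata2 (1.38 ± 0.21), a factor of stem and mast cells, and Cd34 (0.97 ± 0.25) were higher than in Pml wild type. Among the primary granule and promyelocyte genes described above, Elane, Prtn3, Ctsc, Ms4a3 and Lyz2 were called higher in Pml wild type. Mpo and Ctsg were called higher in Pml null. Kit, Gata2 and Cd34 do not stand for the stem and progenitor list, whose mean differed less. The other genes of that list are not given for this comparison. At 6 h the mean of the 11 ran from 7.42 to 7.73 in untreated Pml null arrays and 7.38 to 7.49 in Pml wild type. At 12 h it ran from 7.52 to 7.62 and from 7.3 to 7.39.

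Markers of other blood cells were counted between untreated leukaemias, where 13.1% of all genes were higher and 12.2% lower in PML/RARA than in PLZF/RARA, and 10.9% higher and 9.92% lower in Pml null than in Pml wild type. Of 9 B cell genes, 4 were higher and 0 lower in PML/RARA than in PLZF/RARA leukaemia, and 2 were higher and 1 lower in Pml null than in Pml wild type. Of 9 T and NK cell genes, 2 were higher and 3 lower in Pml null. Of 9 eosinophil, basophil and mast cell genes, 0 were higher and 4 lower in PML/RARA, and 1 was higher and 2 lower in Pml null. In Pml null, the B cell counts and these last counts are near those shares. The higher one was Cpa3, the mast cell carboxypeptidase (3.30 ± 0.37), while the lower ones were Mcpt8, a basophil protease (-1.39 ± 0.24), and Ms4a2, a relative of Ms4a3 (-1.39 ± 0.15).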
